A study of Mus musculus with 6 samples.

Results

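The core factors of nonsense-mediated mRNA decay (NMD) were examined in early LPre-B (large pre-B) cells, dividing progenitors of B cells in mouse bone marrow. The set held 9 genes of the UPF and SMG families, *Upf1*, *Upf2*, *Upf3a*, *Upf3b*, *Smg1*, *Smg5*, *Smg6*, *Smg8* and *Smg9*. They were taken by gene symbol and not by a rule on their values, but with earlier results of these data known. All 9 had a row among the 13426 genes of the table. Ctrl mice were *Upf1* Flox/Flox with unmodified *Mb1* alleles (*Mb1* +/+), and *Upf1*-cKO mice were *Upf1* Flox/Flox with Cre recombinase in 1 *Mb1* allele (*Mb1* Cre/+), so both groups carried the floxed *Upf1* alleles. *Mb1* is another name of *Cd79a*, a B lineage gene, which drives the Cre. Mice were adult, age-matched, of both sexes and of C57BL/6 background, and the gate for the sorted cells included Lineage-, B220+, sIgM-, CD43+, CD2- and a high forward scatter. There were 3 libraries per group, and since only the *Upf1*-cKO mice carried Cre, an effect of Cre or of the altered *Cd79a* allele cannot be told apart from an effect of the deletion in these libraries.

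NMD degrades mRNAs on which translation ends too early or in an unusual context. UPF1, an RNA helicase, is recruited to the terminating ribosome, joins UPF2 and a UPF3 protein that can bridge to exon junction complexes left by splicing, and is phosphorylated by the kinase SMG1, whose activity is held in check by SMG8 and SMG9. Phosphorylated UPF1 then binds SMG6, an endonuclease that cuts the mRNA, or SMG5, which links it to decapping and deadenylation enzymes. Several mRNAs that encode NMD factors are themselves known NMD targets in mammalian cells, which is why the levels of these factors are of interest where UPF1 is removed.

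Expression is given as normalised reads, that is, reads per 1000000 of a library's effective size. Recovered reads per library ranged from 9732498 to 11006834, and reads on the 9 genes ranged from 141 for *Upf3a* to 11013 for *Smg1*. B lineage identity was checked with marker genes, among which the transcription factors *Pax5* (209 to 256 normalised reads in Ctrl and 214 to 219 in *Upf1*-cKO libraries) and *Ebf1* (363 to 478 and 417 to 433) and the pre-B cell receptor gene *Igll1* (285 to 324 and 288 to 315) were well detected in every library, with overlapping groups. The summed level of 8 neutrophil markers, all with a row, was 114, 18.1 and 14.1 in Ctrl libraries 1, 2 and 3 and 443, 340 and 314 in *Upf1*-cKO libraries 1, 2 and 3. Of these markers 4 were called higher (*Ltf*, *S100a8*, *S100a9* and *Elane*) and none lower. Of the genes of early granule formation on the list, *Elane* went from 0.16 to 0.86 in Ctrl to 1.49 to 2.23 in *Upf1*-cKO libraries, *Prtn3* was at 0.74 to 1.16 and 0.14 to 1.39, and *Mpo* at 2.07 to 8.54 and 5.09 to 7.56. The summed level of 5 plasma cell markers was 170 to 206 in Ctrl and 129 to 154 in *Upf1*-cKO libraries, and the ranges of 6 monocyte and macrophage markers (63.0 to 98.1 and 83.9 to 112) and of the 3 of 7 erythroid markers with a row (6.82 to 11.8 and 8.39 to 9.42) overlapped. Among the monocyte and macrophage markers, *Lyz2* was called higher (26.5 to 47.4 and 49.0 to 68.6) and *Itgam* lower (26.3 to 39.5 and 21.5 to 28.8). Of 7 T lineage markers only *Lck*, which pre-B cells also express, had a row, at 63.0 to 91.7 in Ctrl and 24.5 to 26.1 in *Upf1*-cKO libraries.

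Of the 9 NMD core factors, 6 were higher in the *Upf1*-cKO libraries (*Upf1*, *Upf2*, *Upf3b*, *Smg1*, *Smg5* and *Smg9*), 1 was lower (*Smg8*), and *Upf3a* and *Smg6* did not pass the test. A gene was called at a limma adjusted p below 0.05 over all genes, and by that rule 27.7% of all 13426 genes were called higher and 25% lower. Called in either direction were 7 of the 9, against 52.7% of all genes, and 4 were called higher by 0.5 or more on the log2 scale, against 20.4%. The median log2 fold change was 0.33 for the 9 genes and 0.01 over the table. Every *Upf1*-cKO library was above every Ctrl library for 5 of the 9 genes, as for 30.9% of all genes, and every one was below for 1 gene, as for 28% of all genes. In the plot of values by library, this separation was seen for *Upf1*, *Upf2*, *Smg1*, *Smg5* and *Smg9* in the upward direction and for *Smg8* in the downward direction. Of these calls, those of *Upf2*, *Smg1*, *Smg5* and *Smg9* were made in all 17 other analyses. In a sorted population, fewer cells of a type and less RNA per cell cannot be told apart.

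**Figure D1:**
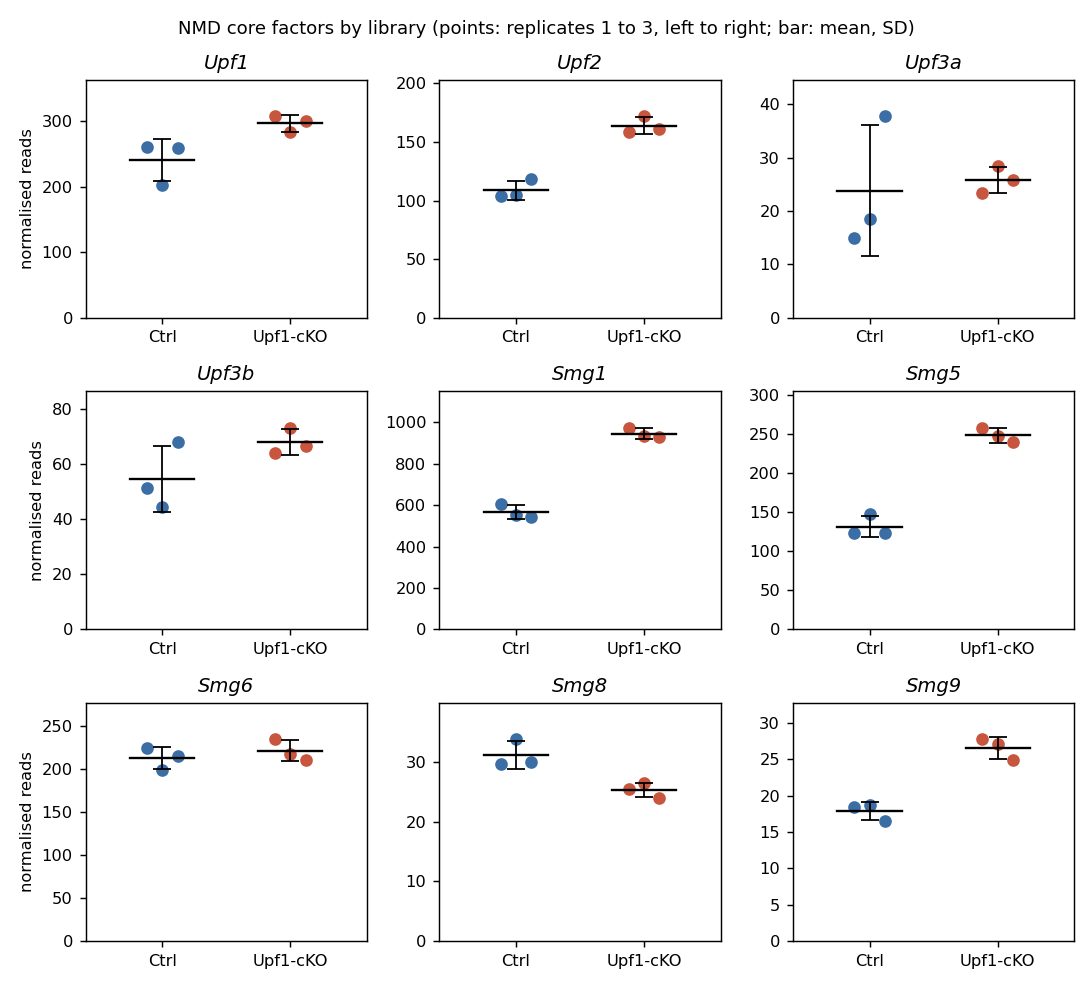
Normalised reads (vertical axes, each from 0) of the 9 NMD core factors in the 3 Ctrl (blue) and 3 *Upf1*-cKO (red) libraries; horizontal bars are means and error bars are SD. *Smg5* goes from 132 to 248 with no overlap, while for *Upf3a* the Ctrl points lie on both sides of the *Upf1*-cKO points.

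The floxed gene comes first. *Upf1* (Entrez ID 19704) lies on the minus strand of chromosome 8, from 70331525 to 70353278 in GRCm38 (mm10). The floxed part, exons 4, 5 and 6 of 24, lies within the coding sequence, at chr8:70342010-70342177 (168 bases), chr8:70341460-70341640 (181 bases) and chr8:70340550-70340711 (162 bases). Together these exons hold 511 bases, or 11.1% of the 4618-base transcript, and the row counts reads on all exons of the gene. The junctions that a deletion removes, and the one that it would create, are shown because reads across them would tell the alleles apart. They run 5′ to 3′ on the coding strand of the reference, and capitals mark bases of the floxed exons in the entries for normal joins, and the stop codon in the entry for exon 3 joined to exon 7.
*Upf1* exon 3 to exon 4: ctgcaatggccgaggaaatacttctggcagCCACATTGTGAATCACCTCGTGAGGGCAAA
*Upf1* exon 6 to exon 7: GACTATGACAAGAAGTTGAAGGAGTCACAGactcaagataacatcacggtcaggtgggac
*Upf1* exon 3 to exon 7: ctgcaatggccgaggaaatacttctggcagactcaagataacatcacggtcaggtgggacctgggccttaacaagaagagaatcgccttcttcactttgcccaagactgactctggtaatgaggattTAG
The normal reading frame holds 1124 residues. Because 511 is not a multiple of 3, joining exon 3 to exon 7 shifts the frame after residue 148, and the shown stop codon starts 97 bases after the join, at codon 182. In that reading 16 exon junctions lie more than 50 bases after the new stop codon, the arrangement that marks a substrate of NMD in textbook terms. The deposited table holds 1 value per gene and does not resolve these junctions.

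*Upf1* stood at 260, 203 and 259 normalised reads in Ctrl libraries 1, 2 and 3 and at 308, 283 and 299.7 in *Upf1*-cKO libraries 1, 2 and 3. All 3 libraries labelled *Upf1*-cKO were above all 3 Ctrl libraries, and Ctrl library 2 was the lowest of the 6. The mean went from 241 ± 32.3 to 297 ± 12.7 (SD, n = 3), a rise of 23.3%, with a log2 fold change of 0.31 (SE 0.089, limma adjusted p 0.00696). The row thus showed no fall in the *Upf1*-cKO group, and since it sums all exons it does not check the label. *Cd79a*, the gene that carries Cre in *Upf1*-cKO mice, was at 71.6 to 75.2 in these libraries and at 213 to 234 in Ctrl libraries. All directions given here follow the labels. The call was lost when each library was centred on its median (0.20, adjusted p 0.0645) and when limma was run without its intensity trend and robust estimation (adjusted p 0.0685), and without Ctrl library 2 the log2 fold change was 0.19 (adjusted p 0.0358). The opposite strand genes *Cers1* and *Gdf1* share 68 and 63 exonic bases with *Upf1*, 1.47% and 1.36% of its exon length, and counting did not use strand.

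**Figure D2:**
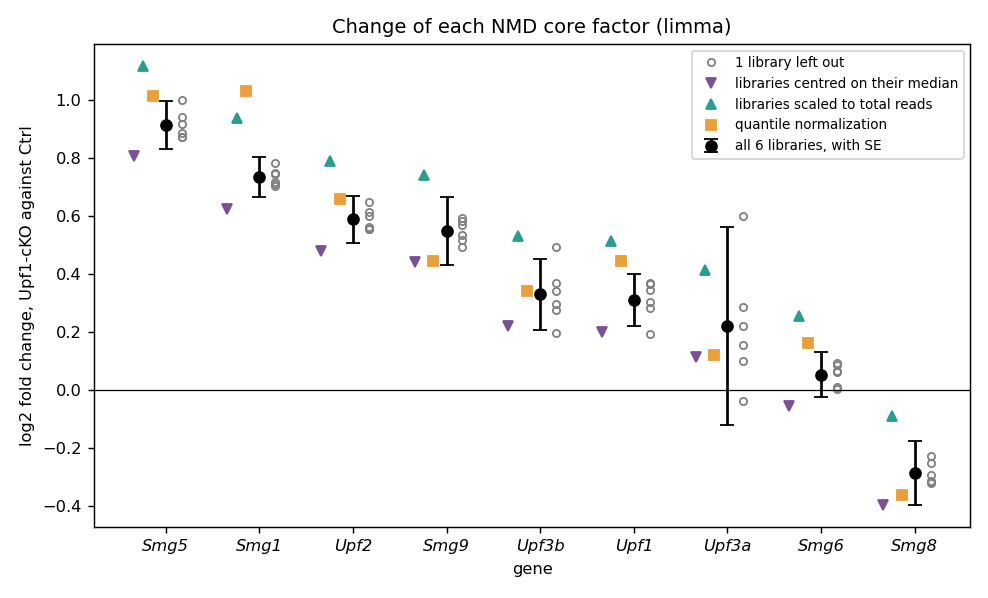
Log2 fold change of each NMD core factor (vertical axis, *Upf1*-cKO against Ctrl, on log2 of the value plus 1), with limma's SE in black, and the value after 3 other scalings (coloured) and after leaving out each library in turn (open circles). *Smg5*, *Smg1*, *Upf2* and *Smg9* stay above 0.4 throughout, whereas *Upf3a* and *Smg6* cross 0.

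*Upf2* encodes the adaptor that connects UPF1 with the UPF3 proteins. The gene (Entrez ID 326622, chromosome 2, 5951469 to 6056703, plus strand) had 104, 105 and 118 normalised reads in Ctrl libraries and 159, 172 and 161 in *Upf1*-cKO libraries. The groups did not overlap, and the lowest *Upf1*-cKO library was well above the highest Ctrl library. The mean rose by 50.8%, from 109 ± 8.06 to 164 ± 7.19 (SD, n = 3), with a log2 fold change of 0.59 (SE 0.080, limma adjusted p 6.51e-06).

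The paralogs *Upf3a* and *Upf3b* encode the proteins that bind exon junction complexes, and UPF3B is the more active of the pair in NMD. *Upf3a* (Entrez ID 67031, chromosome 8, 13785615 to 13799193, plus strand) was at 15.0, 18.4 and 37.8 normalised reads in Ctrl libraries 1, 2 and 3 and at 23.4, 28.4 and 25.8 in *Upf1*-cKO libraries. Ctrl library 3 was the highest of all 6 and the other Ctrl libraries were the lowest, so the groups overlapped, and the log2 fold change was 0.22 (SE 0.342, limma adjusted p 0.629). The value rested on single libraries. Without Ctrl library 3 it was 0.60 and *Upf3a* was called higher (adjusted p 0.00130), and without Ctrl library 1 it was -0.04. *Upf3b* (Entrez ID 68134, chromosome X, 37091678 to 37110322, minus strand) was at 51.5, 44.6 and 67.9 in Ctrl and at 64.2, 73.3 and 66.6 in *Upf1*-cKO libraries. Ctrl library 3 was again the highest of its group and lay within the *Upf1*-cKO range. *Upf3b* passed the test (log2 fold change 0.33, SE 0.123, limma adjusted p 0.0328) but was called in only 10 of the 17 other analyses. Leaving out Ctrl library 2 gave 0.20 (adjusted p 0.168) and leaving out Ctrl library 3 gave 0.49 (adjusted p 0.000369), and the call was also lost without Ctrl library 1 and without *Upf1*-cKO library 2 or 3.

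*Smg1* encodes the kinase that phosphorylates UPF1. The gene (Entrez ID 233789, chromosome 7, 118131308 to 118243670, minus strand) had 606, 555 and 544 normalised reads in Ctrl libraries and 975, 933 and 928 in *Upf1*-cKO libraries, the most reads of the set. The groups were far apart compared with the spread within each. The mean rose by 66.4%, from 568 ± 33.1 to 946 ± 25.7 (SD, n = 3), with a log2 fold change of 0.73 (SE 0.069, limma adjusted p 6.35e-08).

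The subunits that bind and restrain SMG1 moved in opposite directions. *Smg9* (Entrez ID 71997, chromosome 7, 24399619 to 24422778, plus strand) was at 18.4, 18.7 and 16.4 normalised reads in Ctrl and at 27.8, 27.1 and 24.9 in *Upf1*-cKO libraries. *Smg8* (Entrez ID 74133, chromosome 11, 87077732 to 87086774, minus strand) was at 29.6, 33.8 and 29.9 in Ctrl and at 25.5, 26.4 and 23.98 in *Upf1*-cKO libraries. Neither gene's groups overlapped. The mean of *Smg9* rose by 48.8% (log2 fold change 0.55, SE 0.119, limma adjusted p 0.000743) and that of *Smg8* fell by 18.7% (log2 fold change -0.29, SE 0.109, adjusted p 0.0345). The *Smg8* call was made in 12 of the 17 other analyses. It was lost when libraries were scaled to their total reads (-0.09, adjusted p 0.515), and without *Upf1*-cKO library 1, 2 or 3 or Ctrl library 2 (-0.32 to -0.23, adjusted p 0.0515 to 0.123). With 165 to 334 reads per library, *Smg8* and *Smg9* were counted with less precision than *Smg1*.

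The effectors that act on phosphorylated UPF1 differed from each other. *Smg5* (Entrez ID 229512, chromosome 3, 88336260 to 88362338, plus strand), whose product links UPF1 to other decay enzymes, was at 124, 147 and 123 normalised reads in Ctrl and at 258, 247 and 239.7 in *Upf1*-cKO libraries. The lowest *Upf1*-cKO library exceeded the highest Ctrl library by a wide margin. The mean rose by 88.8%, from 132 ± 13.8 to 248 ± 9.29 (SD, n = 3), and its log2 fold change of 0.92 (SE 0.083, limma adjusted p 3.68e-08) was the largest of the 9 genes. With quantile normalization *Smg1* (1.03) was above *Smg5* (1.02). *Smg6* (Entrez ID 103677, chromosome 11, 74925823 to 75164448, plus strand), which encodes the endonuclease, was at 225, 199 and 216 in Ctrl and at 235, 218 and 211 in *Upf1*-cKO libraries. These ranges overlapped, with means of 213 ± 13.1 and 221 ± 12.3 (SD, n = 3), a log2 fold change of 0.05 (SE 0.077) and a limma adjusted p of 0.587. Scaling to total reads, which took the median over the whole table from 0.01 to 0.19, gave *Smg6* a value of 0.26 and a call (adjusted p 0.0169), and median centring, which moved that median to -0.10, gave -0.055 (adjusted p 0.562). *Srr* and the antisense gene *Gm12333* share 126 and 117 exonic bases with *Smg6*, 1.49% and 1.38% of its exon length.

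The neutrophil markers moved with the groups, and their part in these results was not tested. In Ctrl library 1, where their sum was 114, *Smg5* was at 124 and *Smg1* at 606. In Ctrl libraries 2 and 3, where it was 18.1 and 14.1, *Smg5* was at 147 and 123 and *Smg1* at 555 and 544.

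Ratios of 2 members within a library depend little on how libraries are scaled, and 5 such ratios were compared, with 1 added to each value. Without the added 1, the difference between groups was -0.87 in place of -0.84 for *Smg8* to *Smg9* and 0.87 in place of 0.86 for *Smg5* to *Smg6*. *Smg5* relative to *Smg6*, on a log2 scale, was -0.86, -0.43 and -0.80 in Ctrl libraries and 0.14, 0.18 and 0.18 in *Upf1*-cKO libraries. *Smg5* therefore had fewer normalised reads than *Smg6* in every Ctrl library and more in every *Upf1*-cKO library. The difference was 0.86, a 1.82-fold change of the ratio. *Smg8* relative to *Smg9* went from 0.65, 0.82 and 0.83 to -0.12, -0.038 and -0.053, a difference of -0.84, again with no overlap. The plot of ratios shows smaller shifts for *Smg1* relative to *Upf1* (0.42) and *Upf2* relative to *Upf1* (0.28), both without overlap between groups, although the highest Ctrl and the lowest *Upf1*-cKO value of the latter nearly met. *Upf3a* relative to *Upf3b* overlapped, with a difference of -0.11. With 3 libraries against 3, the exact two-sided permutation test cannot go below p = 0.1, which the other 4 ratios reached (0.125 after Benjamini-Hochberg adjustment over the 5). For *Upf3a* relative to *Upf3b* the exact permutation p was 0.7, and without Ctrl library 3 the difference was 0.11.

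**Figure D3:**
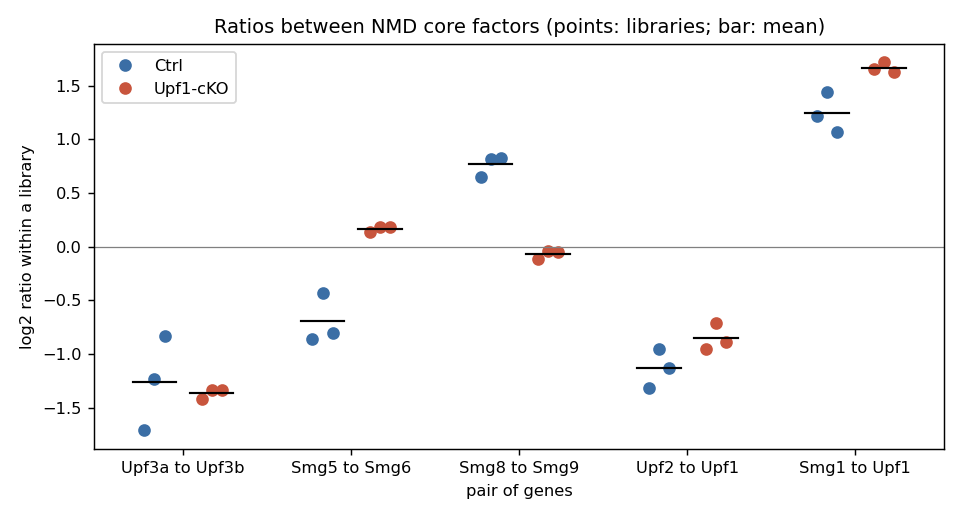
Log2 ratio of 2 NMD core factors within a library (vertical axis) for 5 pairs of genes, with Ctrl libraries in blue, *Upf1*-cKO libraries in red and group means as bars. *Smg5* to *Smg6* crosses 0 upward and *Smg8* to *Smg9* crosses it downward, and only *Upf3a* to *Upf3b* overlaps.

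Levels of different genes were compared per kb of transcript, using for each gene the complete coding transcript with the longest coding sequence. In Ctrl libraries *Upf1* was the highest, with 52.1 ± 7.0 normalised reads per kb (SD, n = 3), followed by *Smg1* (36.5), *Smg6* (36.5), *Smg5* (29.6), *Upf3b* (23.3), *Upf2* (21.01), *Upf3a* (11.5), *Smg8* (9.67) and *Smg9* (7.97). Neighbours in this order with overlapping libraries were *Smg1* and *Smg6*, *Smg5* and *Upf3b*, *Upf3b* and *Upf2*, and *Upf3a* and *Smg8*. In *Upf1*-cKO libraries *Upf1* was at 64.3 ± 2.74 and overlapped with *Smg1* at 60.8 ± 1.65, and *Smg5*, at 55.8 ± 2.09, stood above *Smg6*, at 37.8 ± 2.10. The lower end of the order changed as well, with *Smg9* (11.9) above *Smg8* (7.86), and the order from *Smg6* on was *Upf2* (31.7), *Upf3b* (29.0) and *Upf3a* (12.6). In *Upf1*-cKO libraries *Upf2* overlapped with *Upf3b* and *Upf3a* with *Smg9*, and by coding length *Upf3b* (47.9) was above *Upf2* (43.0). The order depends on the length used. By coding length *Smg9* (11.4) was above *Smg8* (10.5) in Ctrl libraries already. Over the merged exons of all annotated transcripts, a length chosen after the data were seen, *Smg6* (25.2) came before *Smg1* (23.7) in Ctrl libraries and *Upf3a* (4.05) came last. Over the same merged exons, *Upf1* stood apart in *Upf1*-cKO libraries as well, at 61.3 to 66.7, above *Smg1* (39.4) and *Smg5* (35.7), and *Smg8* (7.86) stayed above *Smg9* (7.18). By coding length, the Ctrl libraries of *Smg9* and *Smg8* overlapped. Over merged exons, Ctrl libraries overlapped for *Smg6* and *Smg1* and for *Upf3a* and *Smg9*. In *Upf1*-cKO libraries, *Smg8* and *Smg9* overlapped over merged exons, whereas *Upf1*, *Smg1* and *Smg5* were separate from each other.

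**Figure D4:**
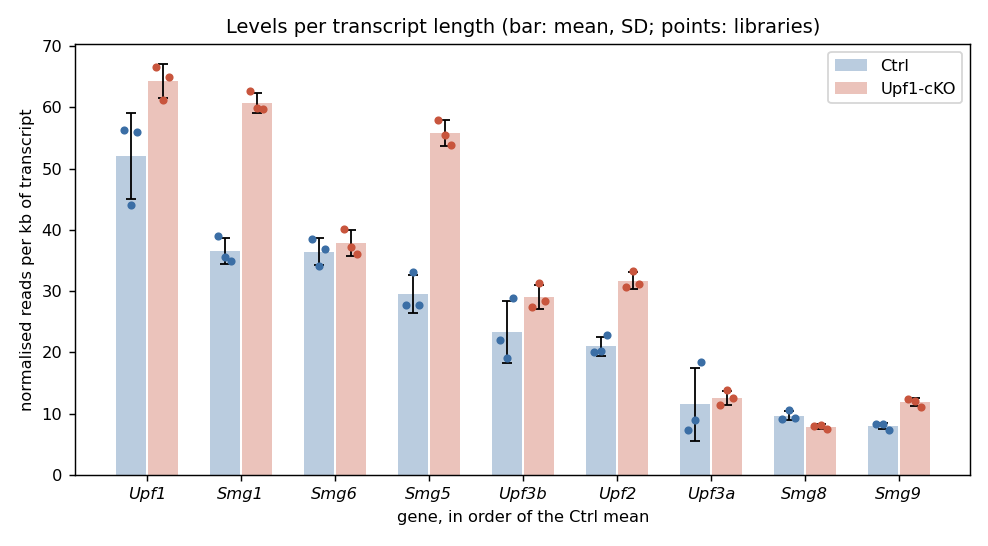
Normalised reads per kb of transcript (vertical axis, from 0) of the 9 NMD core factors, in the order of their Ctrl means; bars are means with SD, points are libraries, Ctrl in blue and *Upf1*-cKO in red. The *Upf1*-cKO means of *Upf1*, *Smg1* and *Smg5* lie between 55.8 and 64.3, and among the Ctrl means that of *Upf1* stands alone at 52.1; over merged exons *Upf1* stands alone in both groups.

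Annotated features known to mark NMD substrates were then set beside these changes. An upstream ATG is a start codon in the 5′ UTR, from which translation can end before or within the main coding sequence. Exactly 1 was annotated in *Upf2*, *Smg1*, *Smg5* and *Smg9*, and none in *Upf1*, *Upf3a*, *Upf3b*, *Smg6* and *Smg8*. The stretches are shown because these 4 genes had the largest log2 fold changes of the set. They are read from the GENCODE transcripts on GRCm38, 5′ to 3′ on the coding strand, with the upstream ATG in capitals, and are cut after at most 30 bases.
*Upf2*: ATGttgacaacaggcactaggttgtcctgg
*Smg1*: ATGtcgtgtcggggaaggta
*Smg5*: ATGgcggccgagcagggccggcggcagtgg
*Smg9*: ATGcgccgagctagcagcgcaggccgtgac
The reading frames opened by these codons differed. In *Upf2* and *Smg1* the upstream ATG lies 38 and 20 bases before the coding start. Its frame (39 and 21 bases, stop codon included) ends on the first base of the coding sequence. In *Smg5* and *Smg9* the upstream ATG lies 121 and 272 bases before the coding start, and its frame (93 and 108 bases) closes before that start. The log2 fold changes of the 4 genes with an upstream ATG were 0.55 to 0.92 (median 0.66), and those of the 5 genes without were -0.29 to 0.33 (median 0.22), with no overlap. Without Ctrl library 3 they overlapped, since *Upf3a* was then at 0.60 and *Upf3b* at 0.494 beside *Smg9* at 0.493. Over the 11951 genes of the table with a complete coding transcript, 49.6% had at least 1 upstream ATG, of which 29.4% were called higher, against 29.2% of the genes without. The median log2 fold change was 0.029 with and 0.015 without, so that the split within these 9 genes was not seen over the table.

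The 3′ UTR, which can trigger NMD when long, held 4233 bases in *Smg1* (longer than in 94.8% of genes), 1498 in *Smg6*, 1261 in *Upf2*, 1230 in *Smg5*, 958 in *Upf1*, 834 in *Upf3b*, 719 in *Upf3a*, 400 in *Smg9* and 221 in *Smg8* (15.7th percentile), beside a median of 929 over all genes. The 4 genes with a 3′ UTR over 1000 bases had log2 fold changes of 0.05 to 0.92 (median 0.66) and the 5 with a shorter one -0.29 to 0.55 (median 0.31), ranges that overlap, as the plot of change against 3′ UTR length shows. *Smg6* has a longer 3′ UTR than *Smg5* without a call and *Smg9* a short one with a rise. An exon junction more than 50 bases after the stop codon, a further mark, was annotated in the chosen transcript of none of the 9 genes and in 0.343% of all genes. An additional transcript with the annotation biotype for NMD was listed for *Smg1*, *Smg5* and *Smg6*, as for 29.4% of all genes. A gene-level count cannot tell such a transcript from the coding one.

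**Figure D5:**
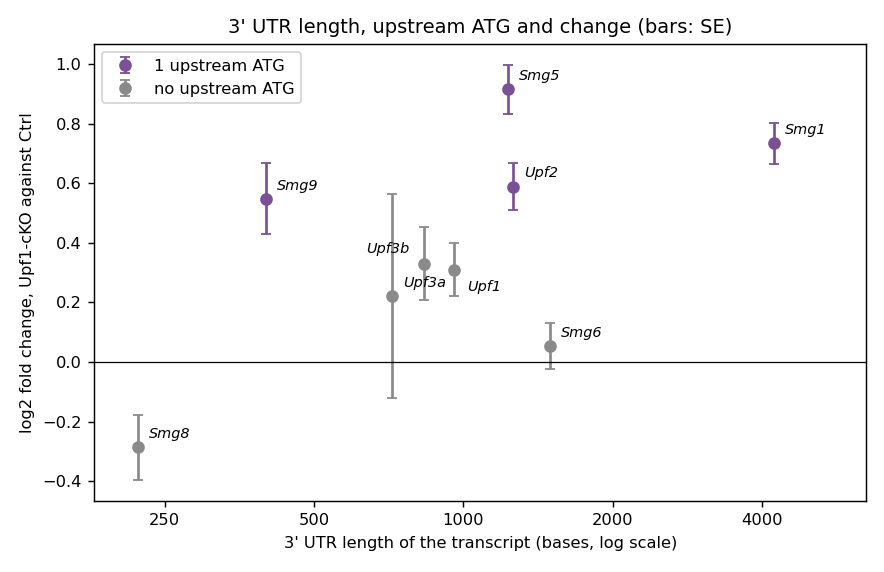
Log2 fold change with SE (vertical axis, *Upf1*-cKO against Ctrl) of the 9 NMD core factors against the annotated length of their 3′ UTR (horizontal axis, bases on a log scale), coloured by the presence of an upstream ATG. The 4 genes with an upstream ATG lie at 0.55 to 0.92, above the other 5, over 3′ UTR lengths from 400 to 4233 bases.

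Genes with a profile like *Upf1* or *Smg5* were sought among 5519 genes with a mean log2 value of at least 5, by Pearson's r over the 6 libraries, which all genes share. For *Upf1* these were *Laptm4a* (r = 0.998), *Tasor* (r = 0.985) and *Rab3ip* (r = 0.982), and 33 genes had an r above 0.95. Like *Upf1*, the 3 named genes were lowest in Ctrl library 2. For *Smg5* the closest genes were *Trappc5*, *Uhrf1bp1* and *Bcat1* (each r = 0.998), and 576 genes had an r above 0.95, so that its profile was a common one.

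The other genes around NMD were described in 8 lists with 75 of 78 genes in the table, of which 20 were higher, 22 lower and 33 not called, with a median log2 fold change of -0.07. These counts stand beside 27.7% higher and 25% lower over all genes. Of the NMD cofactors 3 were lower, with some of the others higher. *Nbas*, which encodes an NMD cofactor at the endoplasmic reticulum, rose by 0.46, and *Ruvbl1*, an ATPase needed for the assembly of PIKK kinases such as SMG1, fell by 0.35 on the log2 scale. Of 10 PIKK kinases and assembly factors, 6 were higher and 3 lower (median 0.22). The 3 lower became 1 without *Upf1*-cKO library 2 or 3 or Ctrl library 1. They also became 1 without trend and robust estimation or with scaling to total reads. The 6 higher became 4 or 5 with any 1 library left out and 7 with scaling to total reads. They became 4 with a replicate block, DESeq2 or median centring, or without trend and robust estimation. Among the 10 genes were *Rpap3* (0.76) and *Telo2* (0.69), which encode assembly factors, and *Prkdc* (0.63), a DNA repair kinase of the same family.

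The factors that act upstream and downstream of UPF1 gave mixed counts. Of 5 translation termination genes 3 were lower and none higher (median -0.45), namely *Pabpc1*, the cytoplasmic poly(A)-binding protein (log2 fold change -0.91, limma adjusted p 4.35e-09), *Gspt1* (-0.63) and *Etf1* (-0.45), which encode the release factors. Of 13 exon junction complex genes 2 were higher and 5 lower (median -0.11), and the 3 largest changes, *Magoh* (-0.64), *Sap18* (-0.46) and *Eif4a3* (-0.42), were downward. *Magohb* is a near-identical copy of *Magoh*, and whether they share reads was not tested. Of 11 decapping and 5′ decay genes 4 were higher and 1 lower (median -0.05), with *Patl1*, a decapping activator, at 0.85, *Xrn2*, a nuclear exonuclease, at 0.66 and *Dcp1b* at 0.48. Of 13 deadenylase genes 1 was higher and 3 lower (median -0.13), with *Pan3* at 0.80, *Cnot2* at -0.59 and *Cnot6l* at -0.27. Of 9 other partners of UPF1 in decay 3 were higher and 4 lower (median -0.32), with *Zc3h12d* at -1.48, *Tdrd7* at 1.11 and *Slbp*, which binds the stem-loop of histone mRNAs, at -1.08. Of 9 helicases related to UPF1 3 were higher and none lower (median 0.09), namely *Ighmbp2* (0.70), *Helz2* (0.62) and *Mov10* (0.56). The counts depended on the analysis. Over the 8 lists, 22 lower genes became 11 when limma was run without trend and robust estimation, 10 when libraries were scaled to total reads (27 higher), 32 after median centring (15 higher) and 14 without *Upf1*-cKO library 2, while the shares of all genes called lower in these analyses were 22.4%, 14.4%, 32.4% and 22.2%. The 3 lower cofactors became 0 without trend and robust estimation or with scaling to total reads, and 1 without *Upf1*-cKO library 1 or 2 or Ctrl library 2 or 3. The exon junction complex went from 5 to 2 lower genes in the same 2 analyses and to 3 without *Upf1*-cKO library 1 or 2 or Ctrl library 2, and its 2 higher genes became 0 without *Upf1*-cKO library 3, after median centring or without trend and robust estimation, 1 without *Upf1*-cKO library 1 and 4 with scaling to total reads. All 5 termination genes were lower without Ctrl library 1. The 1 lower decapping gene became 0 without any 1 of the *Upf1*-cKO libraries, without trend and robust estimation or with scaling to total reads, 2 with voom, DESeq2 or a minimum mean log2 value of 3, and 4 after median centring, and the 3 lower deadenylase genes became 7 after median centring and 1 after quantile normalization or scaling to total reads. Of the helicases, 5 were higher with scaling to total reads and 1 was lower after median centring.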

How the data were processed

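The authors prepared rRNA-depleted RNA with a directional kit, trimmed single-end reads with cutadapt 4.0, aligned them to GRCm38 (mm10) with HISAT2 without strand and counted genes with featureCounts 2.0.1. The processing notes also name limma 3.48.0. The deposited signal per gene and library equals (reads + 0.5) per 1000000 reads of effective library size. Whole reads came back for 100% of values (tolerance 0.02 reads). Only genes above 0.5 in at least 3 libraries were present. RefSeq (GRCm38.p6) named 13008 Entrez IDs, GENCODE M21 named 3, and 415 had no name; gene positions and transcripts are GENCODE's.

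Here, limma 3.58.1 (R 4.3.3; robust eBayes with trend, no term but group) was run on log2(value + 1), which understates changes of low genes, with Benjamini-Hochberg adjustment over 13426 genes. Adjusted p-values are limma's unless another tool is named. The 17 other analyses were a replicate block, eBayes without trend or robust estimation, median centring, quantile normalization, voom, edgeR 4.0.16 or DESeq2 1.42.0 applied to recovered reads, scaling to total reads, a minimum mean log2 value of 3, a pseudocount of 0.1 and none, and each library left out. Within-library ratios were tested by exact two-sided permutation. Scripts were tested on simulated data.

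Members and gene lists were chosen with earlier results of these data known. Named beside the members were of each list up to 3 called genes with the largest changes, the 3 genes most correlated with *Upf1* and with *Smg5*, and genes that overlap a member. Some items that fall under these rules are not reported here. Libraries of a group were further apart than counting error (chi-square over its degrees of freedom 4.53 to 23.4), and none was merged. The labels do not name the mouse of each library, so p-values measure the spread between these libraries.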

Additional observations from a re-analysis of the deposited data

How the results depend on the processing

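The calls of *Upf2*, *Smg1*, *Smg5* and *Smg9* held in all 17 alternatives, with log2 fold changes of 0.48 to 0.79, 0.63 to 1.03, 0.81 to 1.12 and 0.44 to 0.74. *Upf1* kept its direction in all 17 and its call in 15. It was 0.31 but not called without trend and robust estimation and 0.20 after median centring, and it ranged from 0.19 to 0.37 with 1 library left out. Scaling to total reads left 0 members called lower and 10 pathway genes called lower, and without trend and robust estimation 11 pathway genes were called lower. After median centring 32 pathway genes were called lower and 15 higher. With 1 library left out, 5 to 7 members were called higher and 0 to 1 lower, and 15 to 20 pathway genes higher and 14 to 22 lower. Reversed values were those of *Smg6* after median centring (-0.055), *Upf3a* without Ctrl library 1 (-0.038; its values with 1 library left out reached 0.60), and the ratio of *Upf3a* to *Upf3b* (-0.34 to 0.11 with 1 library left out). The causes of these reversals were not tested. *Upf3b* lost its call without trend and robust estimation (adjusted p 0.123), with DESeq2 (0.0548) and after median centring (0.147). Other log2 fold changes of members and other ratios kept their direction, and calls lost or gained for single members stand in the report.

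Deviations from the group mean correlated little between libraries with the same replicate number (r = 0.13, -0.063 and -0.079 over 9202 genes). Pairs with unlike numbers had r from -0.20 to 0.26. With 3 libraries per group this cannot decide whether the libraries were paired. The deposited labels also hold a number per library, adjacent for the Ctrl and *Upf1*-cKO libraries of each replicate, without saying what it stands for. With a replicate block, 6 members were called higher and 1 lower, *Upf1* had an adjusted p of 0.00541, and no member's call changed; 18 pathway genes were called higher and 23 lower.

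The values hold no junction or exon counts, so removal of the floxed exons could not be measured, and transcripts of a gene could not be separated. Reads per library were as few as 141 for *Upf3a*, 165 for *Smg9* and 261 for *Smg8*.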

Other observations

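Over the 11951 genes with a complete coding transcript, annotated marks of NMD differed in how often the genes that carry them were called higher in the *Upf1*-cKO libraries. Of the 41 genes whose transcript has an exon junction more than 50 bases after the stop codon, 20 were higher (48.8%) and 5 lower, with a median log2 fold change of 0.35, against 29.3% higher and 25.8% lower and a median of 0.023 over all 11951. Of the 3509 genes with a transcript of the NMD biotype, 37.2% were higher and 19.5% lower, against 26.0% higher and 28.4% lower of the 8442 genes without one. A 3′ UTR over 1000 bases went with 30.8% higher, against 27.9% for shorter ones. These shares were not tested, and genes that differ in such a feature also differ in length and number of transcripts.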
